A study of Rattus rattus with 8 samples.

Results

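The Cyp3a genes of rat liver were followed in rats fed a barbiturate. The family was taken as 5 gene symbols, Cyp3a23/3a1, Cyp3a2, Cyp3a9, Cyp3a18 and Cyp3a62, matched exactly to the probe table of the array. All 5 symbols were present, carried by 18 features (spots) of 45904 that have a gene symbol, and represent 5 of 16945 named genes. Liver RNA came from male rats of the WH strain, 1 animal and 1 single-colour (Cy3) Agilent array each. In the NaPB group, 4 rats ate diet with sodium phenobarbital at 2500 ppm for 7 days. In the control group, 4 rats ate diet at 0 ppm for 7 days. No allele, transgene or other agent is given for either group, and the sources used here do not state the rats' age. The organism is labelled Rattus rattus.

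Cyp3a enzymes are heme-containing monooxygenases of the endoplasmic reticulum that oxidize steroids, bile acids and a large share of medicinal drugs. They take electrons from NADPH through cytochrome P450 reductase, with help from cytochrome b5. Their genes are classic targets of the nuclear receptor PXR, and also of CAR, the receptor through which phenobarbital acts, both of which bind DNA as partners of RXR. In rats the family is also shaped by sex, through the daily pattern of growth hormone: Cyp3a2 and Cyp3a18 are the forms typical of adult males, Cyp3a9 is more abundant in females, and Cyp3a62 is known mainly from the intestine and from female liver. Cyp3a23/3a1 is the form best known for its rise with inducers such as dexamethasone.

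Of the 5 genes, Cyp3a23/3a1 alone changed with NaPB, at a limma p under 0.05 after Benjamini-Hochberg adjustment over all genes tested, and it was 5.23-fold higher. Cyp3a9 and Cyp3a62 averaged 1.94-fold and 1.77-fold higher and Cyp3a18 averaged 1.86-fold lower, without passing. Cyp3a2 stood at 1.16 times the control level. Of all 10944 genes tested, 10.5% passed, with 6.16% higher and 4.29% lower with NaPB, so that a count of 1 in 5 is not far from this background. The count of members was 2 without control replicate 4, as Cyp3a18 then passed, and 3 without NaPB replicate 3, as Cyp3a9 and Cyp3a62 then passed. The share of higher calls among all calls was 58.9%, and it was 50.2% after quantile normalization and 41.3% with arrays brought to the same median. The median log2 change over all genes was -0.06 at the same median and 0.00 as scaled here. All 5 members lay above the floor for low values and were tested.

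Levels are given as scaled intensity, the deposited Cy3 value divided by the 75th percentile of the named features of its array. The number of arrays limits the precision. On each array 31.8% to 34.5% of these features were at the floor of 0.03. The liver label was checked on 7 hepatocyte markers (Alb, Apoa1, Ttr, Serpina1, Tf, Apoh and Fgb), all measured. None of them passed in either direction in limma (2 fell with arrays at the same median and 1 fell without NaPB replicate 1). Their summed intensity ran from 1120 to 1270 in NaPB livers, against 1300 to 1420 in control livers, without overlap. In whole liver, fewer cells of a type and less RNA per cell cannot be told apart.

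**Figure D1:**
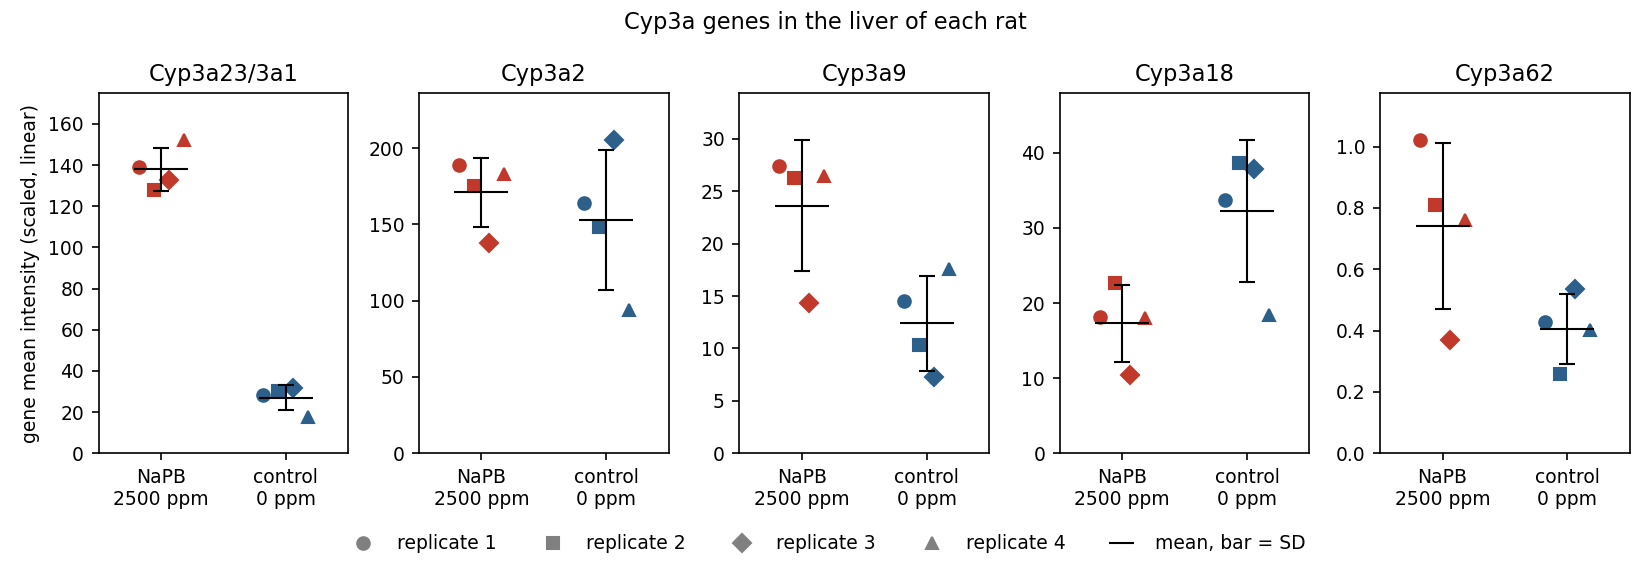
Scaled intensity (linear axis from 0) of each Cyp3a gene in every rat, with NaPB (red) left of control (blue). Each marker is 1 rat, and the line and bar give the mean and SD of 4 rats. Cyp3a23/3a1 is the gene whose diet groups lie apart, at 128 to 152 in NaPB livers against 17.8 to 31.5 in control livers.

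Cyp3a23/3a1 is an inducible drug and steroid oxidase. Its scaled intensity was 139, 128, 133 and 152 in the livers of NaPB replicates 1 to 4, against 28.4, 30.2, 31.5 and 17.8 in those of control replicates 1 to 4. Every NaPB liver lay above every control liver, a separation seen in 19.1% of all genes tested, in this direction in 10.8% and in the other in 8.36%. The log2 change was 2.39 ± 0.17 (errors of changes are SEs of the difference over 4 rats per diet), with a limma adjusted p of 0.000166. Its 95% confidence interval ran from 1.99 to 2.78. In the order of log2 changes it was number 30 from the top of 10944 genes.

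Among these rats Cyp3a23/3a1 spread less in NaPB livers, a difference in spread that was not tested. NaPB livers spanned 1.19-fold, with an SD of 0.11 on the log2 scale, against 1.77-fold and 0.38 in control livers. The wider control range came from control replicate 4, at 17.8, while the other controls lay between 28.4 and 31.5. Without control replicate 4 the log2 change was 2.20, and leaving out each array in turn gave values from 2.20 to 2.47, all past the threshold.

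Both features of Cyp3a23/3a1 passed, at log2 changes of 2.37 and 2.40 in the limma fit over 30504 named features (adjusted p = 0.00024 and 0.000267). In that fit 9.69% of features passed, with 5.73% higher and 3.97% lower with NaPB. The features gave nearly the same value on most arrays. The exception was NaPB replicate 3, where feature 599 read 120 and feature 55436 read 147.

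Cyp3a2, a testosterone hydroxylase of adult male rats, did not pass. Its scaled intensity was 189, 175, 138 and 183 in NaPB replicates 1 to 4, against 164, 148, 205 and 94.1 in control replicates 1 to 4. The NaPB values lay inside the range of the controls, which spanned 2.18-fold from replicate 4 to replicate 3. The log2 change was 0.21 ± 0.22 (limma adjusted p = 0.585), and its 95% confidence interval of -0.29 to 0.71 included 0. Without control replicate 4 the change was -0.0049 (adjusted p = 0.989), so that the sign of the estimate rested on that rat. The 2 features read 0.28 and 0.14 as log2 changes, and neither passed.

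Cyp3a18, the other form typical of males, averaged lower with NaPB. Its scaled intensity was 18.1, 22.7, 10.4 and 18.0 in NaPB replicates 1 to 4, against 33.7, 38.7, 37.9 and 18.4 in control replicates 1 to 4. All controls but replicate 4 lay above every NaPB liver, whereas control replicate 4 lay among the NaPB values and below NaPB replicate 2. The log2 change was -0.89 ± 0.29, with a 95% confidence interval of -1.56 to -0.22, and it did not pass after adjustment over all genes (limma adjusted p = 0.0917). Without control replicate 4 it was -1.14 and passed (adjusted p = 0.0278). With the other arrays left out in turn it ran between -1.04 and -0.67, and none of these passed.

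The probe table lists 10 features for Cyp3a18 and does not say whether they hold the same probe. On a given array the SD between these features was 0.048 to 0.1 on the log2 scale. That SD covers differences between spots, not RNA preparation, labelling or hybridization. Between rats the SD of the gene mean was 0.48 in NaPB livers and 0.51 in control livers. The low reading of control replicate 4 was seen in all 10 features, which ran from 17.8 to 19.6 there, while the lowest feature value in any other control was 32.0. The log2 changes of the features ran from -0.97 to -0.84 and none passed (adjusted p from 0.0721 to 0.107).

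Cyp3a9, the form more abundant in females, averaged higher with NaPB. Its scaled intensity was 27.4, 26.3, 14.3 and 26.5 in NaPB replicates 1 to 4, against 14.5, 10.3, 7.24 and 17.6 in control replicates 1 to 4. All NaPB livers but replicate 3 lay above every control, and NaPB replicate 3 lay below control replicates 1 and 4. The log2 change was 0.96 ± 0.30, with a 95% confidence interval of 0.27 to 1.65 (limma adjusted p = 0.0824). Without NaPB replicate 3 it was 1.19 and passed (adjusted p = 0.0428). The features read 0.94 and 0.98, and neither passed.

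Cyp3a62, known mainly as an intestinal form, was dim but above the floor on every array. Its scaled intensity was 1.02, 0.808, 0.369 and 0.762 in NaPB replicates 1 to 4, against 0.429, 0.257, 0.534 and 0.403 in control replicates 1 to 4. NaPB replicate 3 again lay inside the control range, below control replicates 1, 3 and 4, and the other NaPB livers lay above all controls. The log2 change was 0.82 ± 0.33, with a 95% confidence interval of 0.08 to 1.56 (limma adjusted p = 0.145). Without NaPB replicate 3 it was 1.13 and passed (adjusted p = 0.0307). The features of Cyp3a62 read 0.84 and 0.81, and neither passed.

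Markers of intestinal lining cells were looked at beside Cyp3a62. Of 8 such markers, 7 were on the array and 5 could be tested, of which Lct rose and Apoa4, an apolipoprotein that rat liver makes as well, fell. The call of Lct was lost when NaPB replicate 1 or 2 or control replicate 1, 2 or 4 was left out. That call was also lost with the replicate number as a block, a floor at the 20th percentile or no filter on low values. Marker genes with a call are named here and below after their values were seen. Vil1, a protein of the brush border, and Cdx2, an intestinal transcription factor, lay at the floor on all 8 arrays. The median log2 change of the tested markers was 0.11. The summed intensity of the list, in which a bright gene such as Apoa4 weighs most, was 19.0 to 44.4 in NaPB livers, against 83.4 to 123 in control livers. The part of intestinal cells in the values of Cyp3a62 was not tested.

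**Figure D2:**
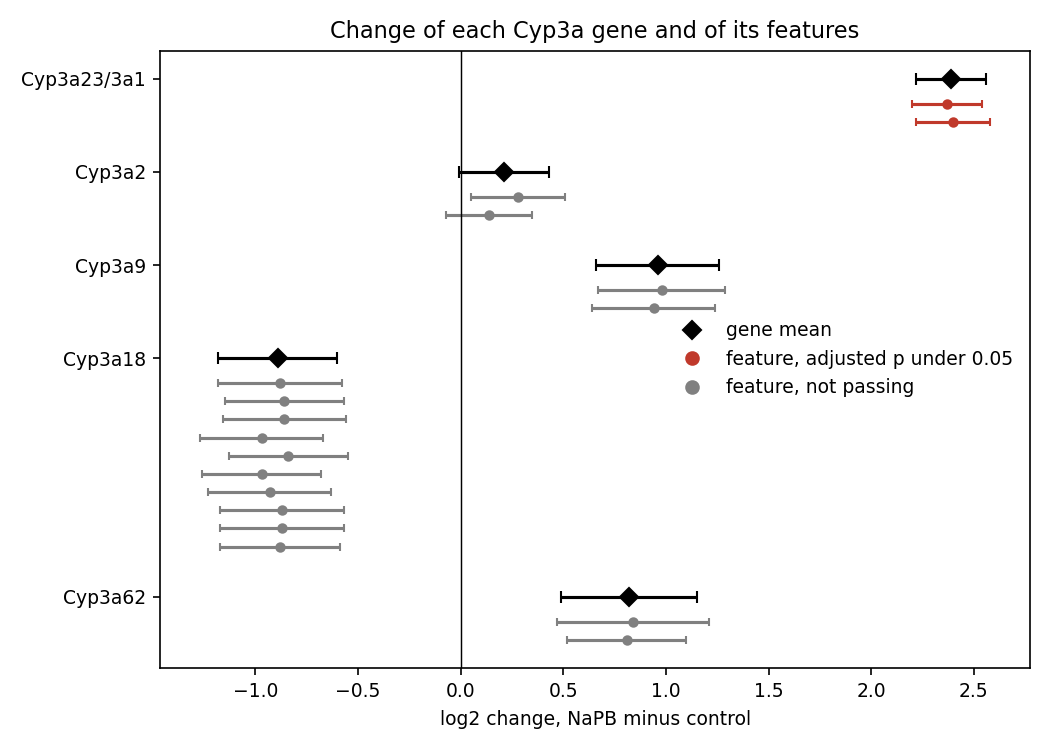
Log2 change, NaPB minus control, of each Cyp3a gene (black diamonds) and of each of its features (circles), with bars for the SE of the difference. The 2 features of Cyp3a23/3a1 (red) sit at 2.37 and 2.40 and passed, the 10 features of Cyp3a18 lie between -0.97 and -0.84, and the grey features did not pass.

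Whether the genes of the family differed from each other in their response was tested directly. For each of 10 pairs, the log2 value of the second gene was subtracted from that of the first within each rat, and the differences were compared between diets by a two-sided exact permutation test. Such a difference sets changes, not levels, side by side, because the brightness of unlike probes cannot be compared. The smallest p that 4 against 4 rats allow is 0.0286. In 7 of 10 pairs the NaPB and control rats did not overlap, each with that smallest p, which was 0.0408 after Benjamini-Hochberg adjustment over the 10 pairs.

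Cyp3a23/3a1 rose more than each of the other genes. Its log2 change exceeded that of Cyp3a2 by 2.18 ± 0.13, that of Cyp3a9 by 1.43 ± 0.50, that of Cyp3a18 by 3.28 ± 0.25 and that of Cyp3a62 by 1.56 ± 0.43 (exact permutation adjusted p = 0.0408 for each, n = 4 rats per group). The error was smallest against Cyp3a2. The within-rat difference of Cyp3a23/3a1 and Cyp3a2 was -0.45 to -0.06 in NaPB livers and -2.70 to -2.29 in control livers. Against Cyp3a18 it was 2.50 to 3.68 and -0.36 to -0.04. The groups lay closer against Cyp3a9, at 2.29 to 3.22 in NaPB livers and 0.02 to 2.12 in control livers. They also lay closer against Cyp3a62, at 7.09 to 8.49 and 5.47 to 6.88.

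The male-typical Cyp3a18 differed from each of the other genes, in the direction of a lower response. Cyp3a2 exceeded it by 1.10 ± 0.20 and Cyp3a9 exceeded it by 1.85 ± 0.51. The change of Cyp3a18 minus that of Cyp3a62 was -1.72 ± 0.39. Each of these had an exact permutation adjusted p of 0.0408 over the 10 pairs. The groups came closest for Cyp3a9 minus Cyp3a18, at 0.21 to 0.60 in NaPB livers and -2.39 to -0.07 in control livers. The male-typical Cyp3a2 and Cyp3a18 thus differed from each other, although neither passed on its own.

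For the other pairs no difference was shown. Cyp3a2 minus Cyp3a9 was -0.75 ± 0.51 (exact permutation adjusted p = 0.254), and it was -0.36 without control replicate 3 and -1.16 without control replicate 4. Cyp3a2 minus Cyp3a62 was -0.61 ± 0.34 (exact permutation adjusted p = 0.179), and without 1 array it ran from -0.84 to -0.41. Cyp3a9 minus Cyp3a62 was 0.14 ± 0.40 (adjusted p = 0.943), and without 1 array it ran from -0.24 to 0.32.

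**Figure D3:**
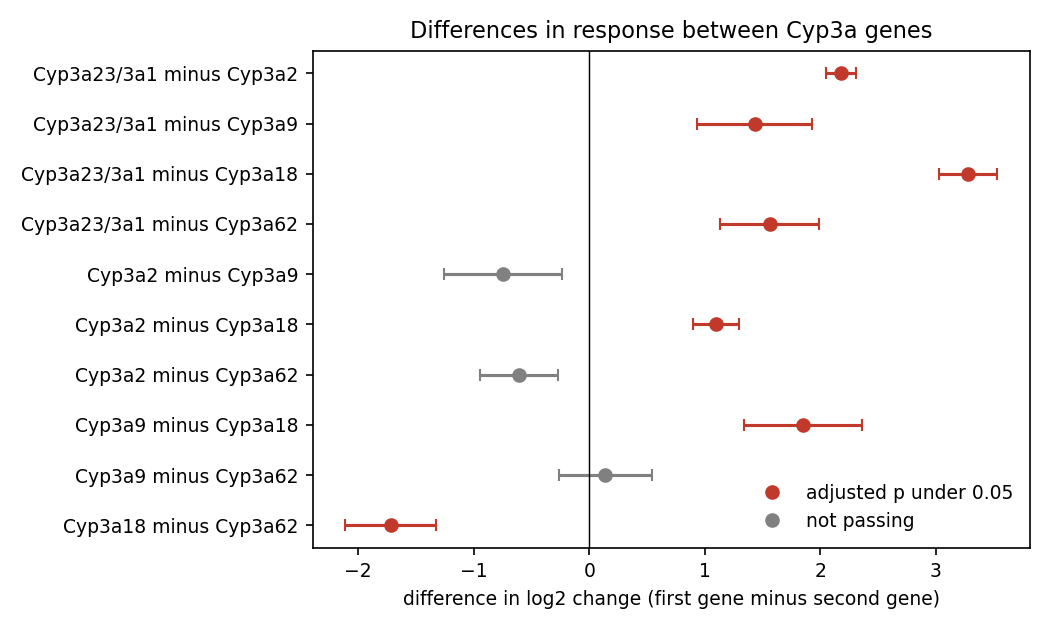
Difference in log2 change between the 2 genes of each pair (first minus second), with the SE over 4 rats per diet. The 7 red pairs had an adjusted exact p of 0.0408, all 4 pairs with Cyp3a23/3a1 lie above 0, and the grey pairs did not pass.

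Within a diet, individual rats stood apart in several Cyp3a genes. Control replicate 4 lay below the mean of its group by 0.56 in Cyp3a23/3a1, by 0.64 in Cyp3a2 and by 0.75 in Cyp3a18 on the log2 scale (deviations of -0.56, -0.64 and -0.75). In the same liver Cyp3a9 deviated by 0.58 and Cyp3a62 by 0.04. Control replicate 3 showed the opposite arrangement, with Cyp3a2 at 0.48 and Cyp3a9 at -0.70. Of all tested genes, 1.75% lay at least 0.5 below the group mean in control replicate 4 and 2.18% at least 0.5 above it. Over the 8 arrays these shares ran from 1.27% to 2.63% below and from 1.17% to 3.00% above.

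NaPB replicate 3 deviated by -0.68 in Cyp3a9, -0.68 in Cyp3a18 and -0.91 in Cyp3a62, by -0.30 in Cyp3a2 and by -0.06 in Cyp3a23/3a1. Of all tested genes, 2.22% lay at least 0.5 below the group mean in that rat. Cyp3a23/3a1 was thus at the level of its group in a rat in which the other members were low.

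**Figure D4:**
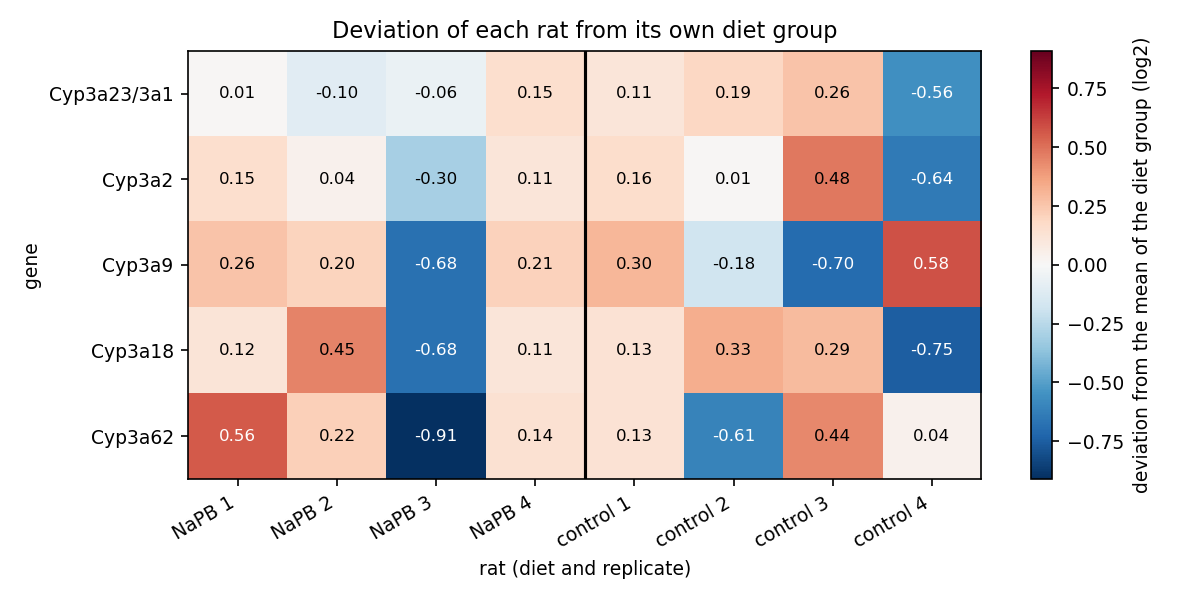
Deviation of each rat from the mean of its own diet group, on the log2 scale, for the 5 Cyp3a genes (rows) in the 4 NaPB and 4 control rats (columns). Blue is below and red above the group mean, and the darkest cells are NaPB replicate 3, at -0.91 in Cyp3a62, and control replicate 4, at -0.75 in Cyp3a18.

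**Figure D5:**
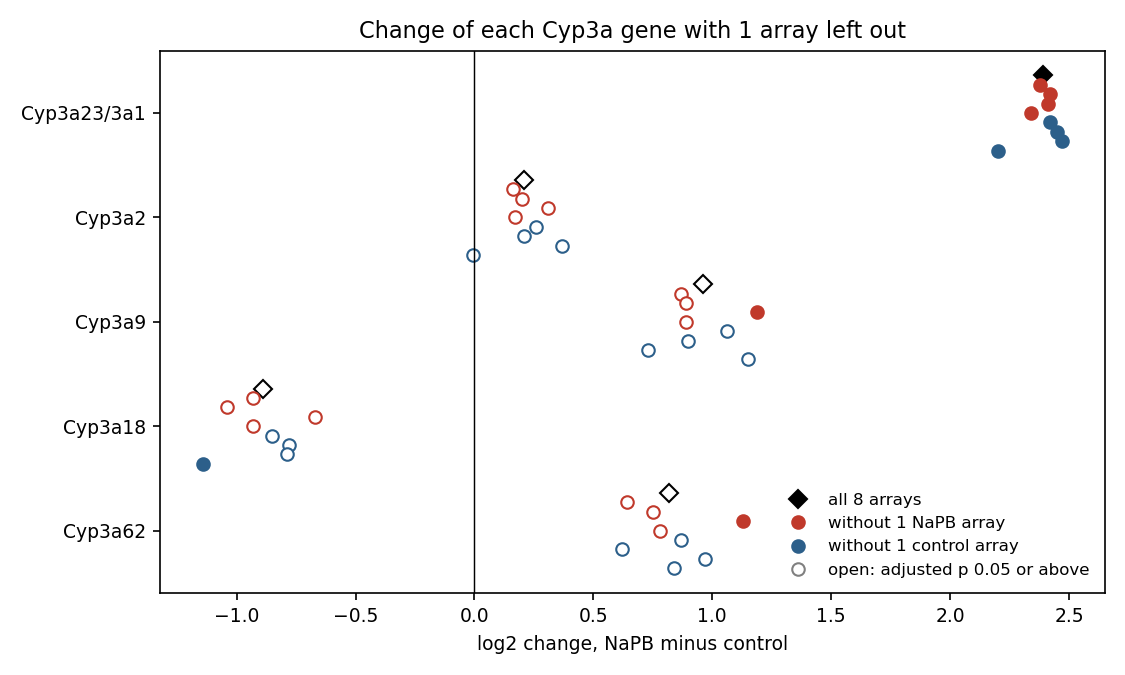
Log2 change, NaPB minus control, of each Cyp3a gene with all 8 arrays (diamonds) and with 1 array left out (circles, red without a NaPB array, blue without a control array). Filled symbols passed at an adjusted p under 0.05: every symbol of Cyp3a23/3a1, 1 of Cyp3a9 at 1.19, 1 of Cyp3a18 at -1.14 and 1 of Cyp3a62 at 1.13.

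The likeness of these deviations was described as the root mean square of the difference in deviation between genes over the 8 livers, in log2 units. It was 0.16 for Cyp3a23/3a1 and Cyp3a2, 0.24 for Cyp3a2 and Cyp3a18 and 0.31 for Cyp3a23/3a1 and Cyp3a18. Between Cyp3a9 and each of these 3 genes it was 0.61 to 0.63. Pairs of Cyp3a62 with the other members lay between, at 0.42 to 0.52. The measure also grows with the spread of each gene, so a small value can partly mean little spread. These genes share arrays and scaling, and the values are a description of 8 livers. Cyp3a73, the remaining Cyp3a symbol on the array, was added after its values were seen. It followed Cyp3a2 most closely, at 0.035, and its log2 change was 0.63 ± 0.22 (limma adjusted p = 0.104). Transcripts of this family are similar in sequence, and whether a feature also binds the transcript of a relative was not tested.

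The genes whose profile over the 8 livers was nearest to that of Cyp3a23/3a1 were sought among all tested genes, by the root mean square distance between profiles centred on their own mean. These were Grin2c, which encodes a subunit of a glutamate receptor, at 0.25, App, the amyloid precursor protein, at 0.27, and Cxcl9, a chemokine induced by interferon, at 0.33 log2 units. App had a scaled intensity of 5.79, 6.23, 5.52 and 7.11 in NaPB livers, against 1.43, 1.45, 1.27 and 1.34 in control livers. App was picked for its nearness to Cyp3a23/3a1, so the separation of its groups is not a separate result. Unlike Cyp3a23/3a1, neither App nor Cxcl9 had its lowest control value in replicate 4. Grin2c, the nearest gene, did, at 0.118, 0.0993, 0.109 and 0.0782 in control replicates 1 to 4.

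The receptors and liver factors that act on Cyp3a genes were examined next. Of 18 listed, 16 were on the array and 14 were tested: 1 rose, 2 fell and 11 did not pass, with a median log2 change of -0.14. Nr1i2, which encodes PXR, read 10.3, 11.5, 11.7 and 9.39 in NaPB livers, against 12.9, 12.6, 18.4 and 14.3 in control livers. All NaPB livers lay below all controls, but the change of -0.43 ± 0.13 did not pass (limma adjusted p = 0.076). It passed with arrays at the same median, at -0.49 (adjusted p = 0.0386). Nr1i3, which encodes CAR, changed by -0.70 ± 0.18 (adjusted p = 0.039), a call lost when control replicate 1, 2 or 3 or NaPB replicate 1, 3 or 4 was left out (adjusted p of 0.0512 to 0.0901). Rxra, the shared partner, read 0.267, 0.244, 0.197 and 0.27 in NaPB livers, against 0.391, 0.374, 0.343 and 0.34 in control livers (-0.57 ± 0.11, adjusted p = 0.016). Hnf4a, a liver factor that CYP3A genes need in mouse and human liver, read 0.579, 0.631, 0.538 and 0.559 in NaPB livers, against 0.378, 0.346, 0.375 and 0.466 in control livers, and rose by 0.57 ± 0.10 (adjusted p = 0.0123).

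Of 15 tested genes for electron transfer and heme, 3 rose, none fell and 12 did not pass, with a median of 0.13. Por, the reductase that feeds all P450s, read 4.43, 4.67, 3.28 and 5.08 in NaPB livers, against 1.96, 2.45, 1.82 and 1.05 in control livers, and rose by 1.31 ± 0.25 (limma adjusted p = 0.0138). Por was lowest in NaPB replicate 3 and in control replicate 4, the rats that also stood low in several Cyp3a genes. These rats were picked after their Cyp3a values were seen. Cyb5a, which encodes cytochrome b5, read 77.1 to 79.4 in NaPB livers and 48.3 to 57.2 in control livers and rose by 0.56 ± 0.07 (adjusted p = 0.00267). Pgrmc1, a heme-binding partner of P450s, rose by 0.75 ± 0.08 (adjusted p = 0.000817). Alas1, which starts heme synthesis, read 55.6, 56.1, 58.0 and 82.5 in NaPB livers, against 39.2, 32.4, 41.5 and 17.0 in control livers. Its change of 1.02 ± 0.28 did not pass (adjusted p = 0.0506), and without control replicate 4 it was 0.73 and passed (adjusted p = 0.033).

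Other known targets of CAR and PXR rose in 17 of 20 tested cases and none fell, with a median of 2.65 against 0.00 over all genes. Cyp2b2, the rat P450 used as a phenobarbital marker, read 137, 129, 111 and 138 in NaPB livers, against 6.49, 5.52, 5.01 and 4.41 in control livers. Its log2 change was 4.60 as the mean of its features and 5.88 with its brightest feature alone, so the features of this gene differ in the size of the rise. Ephx1, an epoxide hydrolase, rose by 5.62-fold (limma adjusted p = 1.81e-05). For genes with control values at the floor, the size of the change depends on where the floor is set. The log2 change of Cyp2b21, with 5 of its 8 feature values in control livers at the floor of 0.03, was 6.86, and it was 5.31 with a floor of 0.1. The exporter gene Abcc3 had all 8 such values at the floor and was at least 17.5-fold higher at 0.03. Its log2 change was 4.13 there, 2.40 with a floor of 0.1 and 5.67 with a floor at the 20th percentile. The exporter gene Abcb1a, with 4 of 8 values at the floor, changed by 1.52, by 1.89 with the floor at the 20th percentile, and was not tested with a floor of 0.1. The 3 that did not pass were Cyp2b12, Cyp2c7 and Cyp2a1. Earlier results of these data were known when the list was drawn up, so its direction is not independent evidence.

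Genes that differ between the sexes in rat liver, with genes of growth hormone signalling, were set beside the male- and female-typical Cyp3a forms. Of 20 tested, 1 rose, 5 fell and 14 did not pass, with a median of -0.19. The list mixes male-typical, female-typical and signalling genes, so these counts and the median have no sex direction. The number that fell was 3 without control replicate 1 or 4, and without control replicate 4 the number that rose was 2. Besides Rgn and Hsd3b5, the genes that fell were Cyp2c13, Sult2a1 and Stat5a. The riser was Cyp2c12, the P450 typical of females, which read 2.97, 3.46, 2.54 and 3.48 in NaPB livers, against 0.613, 0.994, 0.561 and 0.941 in control livers (2.04 ± 0.20, limma adjusted p = 0.000768). Cyp2c11, the main P450 of males, read 120, 138, 100 and 151 in NaPB livers, against 159, 176, 173 and 111 in control livers, with overlapping groups (-0.27 ± 0.18, adjusted p = 0.361). The change was -0.43 without control replicate 4 and -0.16 without NaPB replicate 3, and neither passed. Like Cyp3a2 and Cyp3a18, Cyp2c11 was lowest in NaPB replicate 3 and in control replicate 4 within each diet. The same was seen in Por, Cyp2b2, Cyp3a73, Nr1i3 and Rxra, so it is not particular to male-typical genes. The share of all genes lowest in both rats was not computed. Rgn, which binds calcium, fell by 1.22 ± 0.11 (adjusted p = 0.000477), and Hsd3b5, a steroid dehydrogenase of male liver, fell by 0.59 ± 0.11 (adjusted p = 0.0138). The growth hormone receptor gene Ghr was at -0.18 ± 0.11 (adjusted p = 0.342), with -0.53 for its brightest feature alone (adjusted p = 0.00483) and -0.05 for the median of its features (adjusted p = 0.834). Stat5b, which carries the growth hormone signal, was at -0.20 ± 0.09 (adjusted p = 0.22).

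Cyp3a enzymes are most abundant in the perivenous zone of the lobule, so zone markers are given beside them. Of 8 tested perivenous markers, Glul, Oat, Cyp2e1, Cyp1a2, Axin2 and Slc1a2 fell and none rose (4 fell without control replicate 1 or 2 or NaPB replicate 3), and their sum ran from 89.3 to 99.5 in NaPB livers, against 157 to 179 in control livers. Of 8 periportal markers Cps1 fell and none rose (2 fell without NaPB replicate 4), with sums of 203 to 258 in NaPB livers, against 273 to 333 in control livers. Lgr5, a perivenous marker, lay at the floor on all arrays. Among 4 tested bile duct markers Epcam rose (2 rose without NaPB replicate 4). Cd163 fell among 6 Kupffer cell markers and Kdr among 5 sinusoidal markers. Of 6 stellate cell markers Col3a1 and Reln fell, but 0 or 1 did with any 1 array left out. None of 3 lymphocyte markers passed. Cd3e, Cd2 and Ms4a1 of the lymphocyte list and Sox9 of the bile duct list were at the floor throughout. The part of any of these cells in the Cyp3a values was not tested.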

How the data were processed

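Each sample is 1 rat liver on 1 array. The authors deposited linear Cy3 intensity that had been divided by a factor per array, as the values show, with the 75th percentile of named features at 1.08 to 1.09. Per the submitters' processing notes, Agilent Feature Extraction 10.7 was used. Background subtraction, flags, scaling, slides and dates are not stated in the labels or files, so no batch could be tested.

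Symbols came from the array's probe table. None of the 5 Cyp3a symbols was found in the reference gene table (Rattus rattus), so no coordinates or sequences are given. Arrays were scaled to the 75th percentile of their named features, floored at 0.03, put on the log2 scale and averaged over the features of each gene. A gene (10944 of 16945) or feature (30504) was tested where 3 or more arrays of a diet lay above the floor. The test was limma 3.58.1 (lmFit, eBayes, R 4.3.3), two-sided, with Benjamini-Hochberg adjustment over all of them and a threshold of 0.05. The fit was tested on simulated data. Permutation tests used scipy 1.17.1 and figures matplotlib 3.10.9.

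Named genes were the members, the 3 genes of lowest adjusted p in each list with a fixed set, and the 3 nearest profiles of each member that passed. The members and lists were chosen with earlier results of these data known. Alternatives were other scalings, floors, filters, feature summaries, array weights, variance priors, the replicate number as a block, and leaving out each array.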

Additional observations from a re-analysis of the deposited data

Results flagged for a closer look

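In 8 of 90 sets of 4 rats examined, the values of 1 gene or feature in 1 diet, the highest or lowest rat stood apart from the other 3 by more than Dixon's 95% critical share of the whole range. Gaps and ranges were taken on linear intensity, not on the log2 scale. Chance flags about 5% of such sets. The 90 sets are not independent, because a gene and its own features were both examined. The count of 8 was not tested against chance. Cyp3a9 in NaPB replicate 3 was low, at a scaled intensity of 14.3, and so was its feature 17099 there, at 13.9. Feature 20633 of Cyp3a18 was low in control replicate 4, at 17.9. Outside the family, Alas1 was high in NaPB replicate 4 at 82.5, and Ephx1 was high there at 53.7. Abcc3 was low in NaPB replicate 3 at 0.44. Cyp2b21 was high in control replicate 1 at 0.0467 and Abcb1a was high in control replicate 4 at 0.0362, both close to the floor of 0.03.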

How the results depend on the processing

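Cyp3a23/3a1 kept its call under all 20 alternatives run, at log2 changes of 2.20 to 2.47 (adjusted p at most 0.00454). A factor per array cancels within a rat and no member lies near the floor. Such scalings and floors thus leave pair differences nearly unchanged by construction. Quantile normalization is not such a factor, and with it Cyp3a23/3a1 minus Cyp3a2 was 2.12 instead of 2.18. Over the alternatives with a test, the exact permutation adjusted p of Cyp3a2 minus Cyp3a62 ran from 0.0714 to 0.254. With 1 array left out, the exact permutation test cannot go below p = 0.0571, so pair differences were then compared as values only. Cyp3a2 was at -0.0049 without control replicate 4, and up to 0.37 without another array. Cyp3a9 passed with array weights, at 1.06 (adjusted p = 0.0459), and with the replicate number as a block, at 0.96 (adjusted p = 0.0206). Without 1 array it ran from 0.73 to 1.19, Cyp3a18 from -1.14 to -0.67 and Cyp3a62 from 0.62 to 1.13. Among the other named genes, Por lost its call with no filter on low values (adjusted p = 0.0609) and Hnf4a with the block (0.0542). Nr1i3 lost its call with the block (0.12), no filter (0.119), the median of features (0.0627) and a floor at the 20th percentile (0.0759). Alas1 passed with a floor of 0.1 (0.0413), with only genes above the median level (0.0397) and with a trended and robust prior (0.0485). The cause was not tested.

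Over all genes, 1144 changed, 674 higher and 470 lower. Arrays at the same median gave 760 lower, a floor at the 20th percentile gave 713 (256 lower), no filter gave 739 (278 lower) and the replicate block gave 583 (354 higher, 229 lower). Without 1 array the count ran from 625 to 980, with 385 to 556 higher and 240 to 426 lower. Of features, 2957 changed, 1747 higher and 1210 lower. Arrays at the same median gave 1868 lower, no filter gave 1937 (733 lower) and the block gave 1463 (941 higher, 522 lower). Without 1 array the count ran from 1581 to 2539, with 1013 to 1476 higher and 568 to 1063 lower. The replicate numbers belong to different animals, and the deviations of same-numbered rats correlated at -0.128 to 0.0762. Only for number 1 did both rats correlate best with each other, at 0.0762. Whether the numbers pair rats was not tested.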
